A study of Mus musculus with 16 samples.

Results

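The comparison described here is that of the antibody Mel321-31 with the isotype control MGO.53 on B16-F10, a pigmented mouse melanoma cell line, with all genes as its readout. Its members are the 4 libraries labelled Mel321-31 and the 4 labelled MGO.53, 8 of the 16 samples in the labels and 8 of the 15 libraries with counts. The series, whose title speaks of decoy antibodies that block extracellular HSP70, asked how gene expression and pathways respond to antibody treatment. Cells that the labels call wild type were kept with 1 antibody for 24 hours, and polyadenylated RNA was sequenced with a strand-specific kit. All 8 libraries belong to batch 1. The cells were a culture of 1 line, and neither the antibody dose nor an arm without antibody is given in the labels. Mel322-34 (n = 4) and Mel321-35 (2 libraries of batch 1 and 1 of batch 2) are used below only as yardsticks, and Mel321-35 replicate 2 was not analysed here. The labels call the samples biological replicates and say no more, so the p-values reflect no more than the scatter among these libraries, which may be technical.

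HSP70 proteins are chaperones that fold other proteins inside the cell, and some HSP70 leaves stressed or malignant cells. Outside the cell it can bind receptors such as the Toll-like receptors TLR2 and TLR4 and scavenger receptors, which can switch on NF-kB and the interferon regulatory factors. Type I interferon in turn acts through a complex of STAT proteins and IRF9, which binds an element named the ISRE in the promoters of interferon-stimulated genes.

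The Mel321-31 libraries held 31662059 to 37957845 counts and the MGO.53 libraries 19446531 to 33529927, and the exact two-sided permutation p of that difference was 0.0571, where 0.0286 is the smallest that 4 against 4 allows. The mitochondrial share of the counts was 1.96 ± 0.0868% against 2.21 ± 0.215% (SD, n = 4 each, exact permutation p = 0.0857). Without MGO.53 replicate 1 either p was 0.0286. Markers of the melanocyte lineage fitted the label: all 10 were tested, and their summed level was 31858 to 32402 CPM with Mel321-31 and 31442 to 32282 CPM with MGO.53. CPM are counts per 1000000, scaled by TMM for single genes and by the library total alone for sums. Markers of other cells were low. The 10 keratinocyte markers, Krt5, Krt14 and Trp63 among them, summed to 0.0824 CPM at most with Mel321-31 and 0.309 CPM with MGO.53, and Adgre1 and Itgam of macrophages and Cdh5 of endothelium had no read in the 8 libraries. The 10 macrophage markers summed to 16.2 to 16.8 CPM with Mel321-31 and 17.0 to 22 CPM with MGO.53, most of it Cd68, a lysosomal protein (14.1 and 16.0 CPM on average). The 10 fibroblast markers summed to 26.0 to 30.6 and 26.5 to 30.4 CPM, and the 10 endothelial markers to 2.81 to 4.90 and 3.25 to 3.96 CPM. None of the 11 tested markers of macrophages, lymphocytes, fibroblasts and endothelium was called by edgeR or DESeq2, and 2 of the 11 had an unadjusted p under 0.05 (edgeR).

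Relative to MGO.53, 517 of 14633 tested genes changed with Mel321-31, or 3.53% (edgeR's quasi-likelihood F-test, Benjamini-Hochberg adjusted p under 0.05, the threshold for every gene called here). Of these, 206 were higher (1.41%) and 311 were lower (2.13%). An unadjusted p under 0.05 was reached by 2600 of the 14633 genes, and such counts within a list are to be read beside that share. The decreases were the larger changes: 118 of the 311 lower genes were at least 2-fold lower, and their median absolute log2 fold change was 0.67. Among the 206 higher genes 183 changed by less than 1.2-fold, with a median of 0.18, and 1 passed 2-fold, the entry Gm4755 (2.28), chosen here after its values were seen. The genes called lower also had lower levels, with a median MGO.53 level of 13.6 CPM against 89.4 CPM for the genes called higher and 21.4 CPM over all tested genes. The median log2 fold change over all tested genes was -0.0014. Groups did not overlap for 268 of the 311 lower and 159 of the 206 higher genes. Over all tested genes, every Mel321-31 library was below every MGO.53 library for 787 (5.38%) and above for 674 (4.61%). The count of 517 rests on single libraries: it was 1238 without Mel321-31 replicate 1, 136, 253 and 218 without its replicates 2, 3 and 4, and 163 and 187 without MGO.53 replicates 2 and 4.

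**Figure D1:**
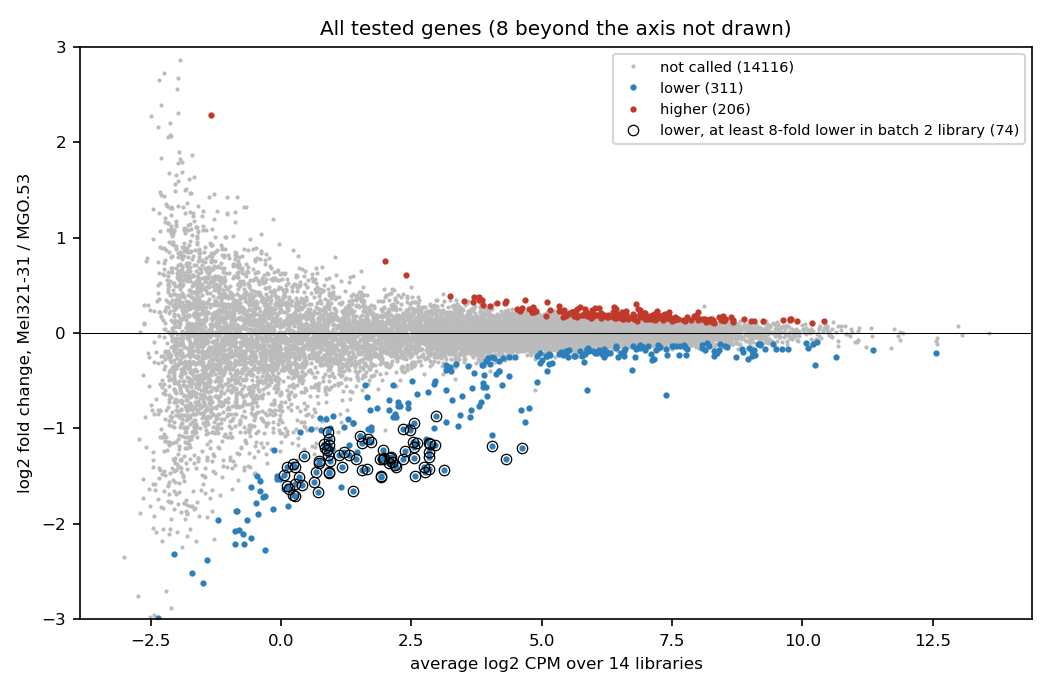
Log2 fold change of Mel321-31 over MGO.53 (y axis) against the average log2 CPM over 14 batch 1 libraries (x axis) for each tested gene, with called genes in colour and circles around called genes that the batch 2 library held at 8-fold less or lower. Most of the 206 higher genes lie close to 0, and 97 of the 311 lower genes had under 5 CPM with MGO.53. The 8 genes beyond the axis are not drawn.

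A set of transcripts moved with the groups described below. The single batch 2 library, of Mel321-35, held at least 8-fold less than the batch 1 mean of 95 transcripts. It is the only library of its batch, so what is its own and what is its batch's cannot be told apart. The batch 1 mean, which had to reach 1 CPM, includes the MGO.53 libraries, so the choice of the 95 is not independent of the comparison. The directions and the p-value given next for the 95 rest in part on that choice. All 95 had a log2 fold change below 0 with Mel321-31 (-1.71 to -0.50, median -1.28), and 74 of them were called lower. Their summed level was 229, 152, 218 and 236 CPM in Mel321-31 replicates 1 to 4, against 433, 578, 340 and 642 CPM in MGO.53 replicates 1 to 4. No Mel321-31 library reached the level of any MGO.53 library, and the two-sided exact permutation test gave its lowest attainable p, 0.0286 (0.0571 without Mel321-31 replicate 2). After Benjamini-Hochberg adjustment over this sum, the total counts and the mitochondrial share, each permutation p was 0.0857. The same sum was 204 to 568 CPM in the 4 Mel322-34 libraries, 282 and 448 CPM in the 2 batch 1 libraries of Mel321-35, and 11.7 CPM in the batch 2 library of that antibody. The 95 transcripts also moved together within a group: their median log2 ratio to the MGO.53 mean was -1.70 in Mel321-31 replicate 2 and -1.19 to -1.09 in its other 3 libraries, and -0.59 to 0.36 across the MGO.53 libraries.

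The change with Mel321-31 followed the level in the batch 2 library well beyond those 95. For 11714 genes that level was divided by the mean of the 6 batch 1 libraries of Mel322-34 and Mel321-35, which take no part in the comparison. Of 98 genes whose ratio was at most 0.125, 73 were called lower and the median log2 fold change was -1.27. These 98, of which 93 are among the 95, were chosen without the libraries compared, and all 98 had a log2 fold change below 0. Their summed level was 231, 153, 220 and 237 CPM in Mel321-31 replicates 1 to 4 and 435, 581, 341 and 646 CPM in MGO.53 replicates 1 to 4, again with no overlap (two-sided exact permutation p = 0.0286, a sum added after the data were seen). For the 35 genes between 0.125 and 0.25 and the 108 between 0.25 and 0.5 the medians were -1.0 and -0.40, with 19 and 30 called lower. Of the 10536 genes with a ratio near 1 (within 0.25 of it), 133 were called lower and 201 higher, with a median of 0.0076. With the summed level of the 95 transcripts as a covariate 5 genes were called, Adarb2 lower and Hspe1, Aifm1, Ptms and Hmgn5 higher, chosen after their values were seen. An unadjusted p under 0.05 was reached by 1204 genes in that fit, against 2600 without the covariate (edgeR). That sum separates the groups in these 8 libraries, so this fit rests on the relation to the sum within groups. How well it tells the antibody from the sum was not tested. In bulk RNA, fewer cells of a kind and less RNA per cell cannot be told apart.

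**Figure D2:**
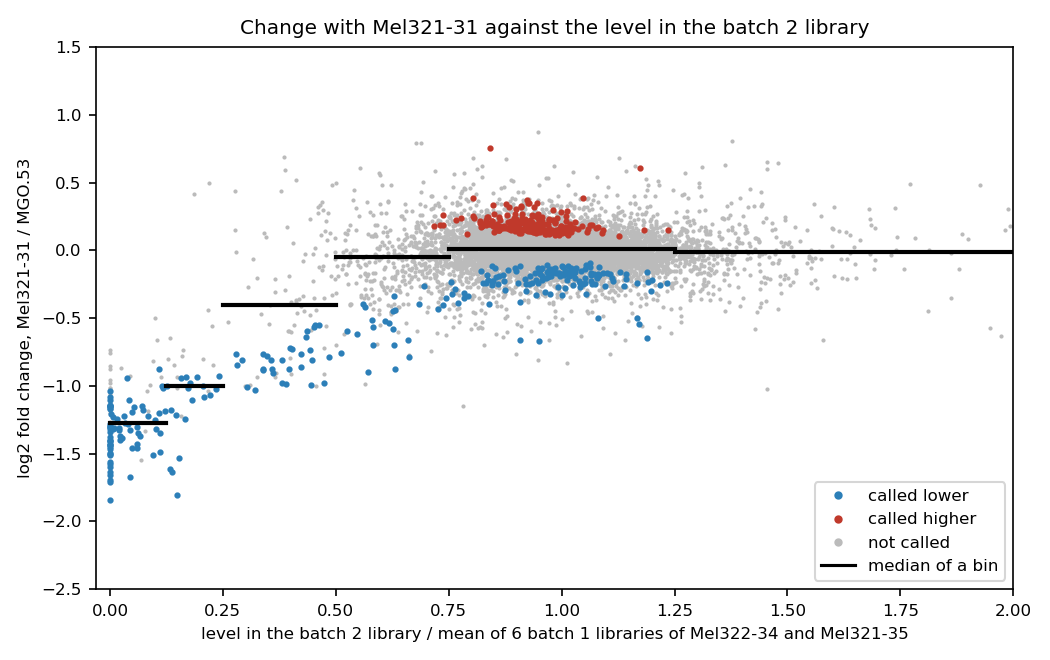
Log2 fold change of Mel321-31 over MGO.53 (y axis) against the level in the batch 2 library divided by the mean of 6 batch 1 libraries of the other antibodies (x axis), with black bars at the median of each bin. The few genes beyond the axes are not drawn. The median is -1.27 at ratios up to 0.125 and 0.0076 at ratios within 0.25 of 1.

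Many of the genes called lower are known to be induced by interferon. The ISRE, searched as GAAA, any 2 bases and GAAA again on both strands in the 250 bases before and 50 bases after the start of each gene in the RefSeq table (build GRCm38.p6), was present for 38 of the 235 lower genes with a promoter in the table, or 16.2%. It was present for 5 of 158 higher genes (3.17%), for 382 of 10494 tested genes (3.64%) and for 3.44% of all 32851 promoters. Among lower genes the share was 21.8% for those within the 95 transcripts and 14.4% for the others. The AP-1 element TGANTCA was present for 13.6% of lower and 6.25% of all tested genes, the NF-kB element (GGGA, any 2 bases, TTCC) for 4.68% and 1.68%, and the C/EBP-ATF element TGATGCAA for 1.28% and 0.705%. Among higher genes these elements were present for 4.43%, 3.17% and 0.633%, in that order. The NF-kB matches were in 11 lower and 5 higher genes. These are matches of letters, described with no test, and they say nothing of binding. The 250 bases before the start of 5 called genes are shown, 5′ to 3′ on the gene's strand and credited to RefSeq. They were chosen among lower genes with a match, to span families that fell: a ubiquitin-like modifier, a translation inhibitor, a GTPase, a chemokine and the class I light chain. Irf7, H2-K1 and Tap1, also called lower, had no match. Capitals mark the ISRE, in some promoters as its reverse complement. The Isg15 stretch is chr4:156200819-156201068, minus strand, and its 3 overlapping matches begin 78, 72 and 66 bases before the start. The Ifit1 stretch is chr19:34640639-34640888, plus strand, with matches 104 and 85 bases before the start. The Gbp2 stretch is chr3:142620413-142620662, plus strand (59 bases before the start), the Cxcl10 stretch chr5:92348890-92349139, minus strand (213 bases), and the B2m stretch chr2:122147437-122147686, plus strand (139 bases).
Isg15: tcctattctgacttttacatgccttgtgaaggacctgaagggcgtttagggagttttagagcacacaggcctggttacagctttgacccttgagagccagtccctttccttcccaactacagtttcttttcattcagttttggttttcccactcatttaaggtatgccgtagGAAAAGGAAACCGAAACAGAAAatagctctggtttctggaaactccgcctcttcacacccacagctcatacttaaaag
Ifit1: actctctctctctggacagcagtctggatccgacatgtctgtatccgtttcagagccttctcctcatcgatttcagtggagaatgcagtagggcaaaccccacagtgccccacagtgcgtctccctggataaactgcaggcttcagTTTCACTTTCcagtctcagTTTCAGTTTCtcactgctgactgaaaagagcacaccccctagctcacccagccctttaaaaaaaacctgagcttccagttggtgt
Gbp2: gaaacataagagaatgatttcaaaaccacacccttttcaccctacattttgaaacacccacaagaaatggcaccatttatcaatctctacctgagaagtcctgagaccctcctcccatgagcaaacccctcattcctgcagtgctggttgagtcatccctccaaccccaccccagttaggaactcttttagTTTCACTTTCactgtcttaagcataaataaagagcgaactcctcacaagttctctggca
Cxcl10: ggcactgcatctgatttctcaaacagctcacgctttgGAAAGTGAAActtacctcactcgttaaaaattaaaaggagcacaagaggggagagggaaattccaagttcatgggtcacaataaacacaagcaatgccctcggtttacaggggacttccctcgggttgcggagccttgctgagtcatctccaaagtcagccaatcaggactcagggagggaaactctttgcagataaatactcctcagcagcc
B2m: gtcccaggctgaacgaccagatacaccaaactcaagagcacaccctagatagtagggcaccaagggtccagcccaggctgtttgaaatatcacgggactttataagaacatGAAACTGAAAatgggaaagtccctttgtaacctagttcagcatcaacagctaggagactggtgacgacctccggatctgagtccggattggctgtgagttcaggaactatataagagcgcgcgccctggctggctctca

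Upstream of these genes, the interferon ligand and its amplifier were lower while most receptors and STATs were not called. Ifnb1, which encodes interferon beta, had 0.573, 0.358, 0.735 and 0.964 CPM in Mel321-31 replicates 1 to 4 and 1.14, 1.97, 1.28 and 3.70 CPM in MGO.53 replicates 1 to 4. The groups did not overlap, and MGO.53 replicate 4 stood highest (log2 fold change -1.60 ± 0.36, SE, adjusted p = 0.0110, edgeR). Irf7, the factor that amplifies interferon production, had 4.04, 3.06, 4.02 and 5.25 CPM against 9.0, 12.8, 6.72 and 15.8 CPM in the same order, again with no overlap (-1.43 ± 0.23, adjusted p = 0.00104). These were the 2 called among 17 genes of receptors, JAK kinases, STATs and IRFs (median -0.10), and both were among the 95 transcripts. Ifnar1 and Ifnar2, the receptor chains, had log2 fold changes of 0.04 and 0.0037. Among 12 sensors and adaptors of viral nucleic acid, the RNA sensors Ifih1 (-0.57), Dhx58 (-0.55) and Ddx58 (-0.42) fell. The DNA sensor Cgas (-0.02), its partner Sting1 (-0.07) and the adaptor Mavs (-0.11) did not pass.

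Of 44 tested interferon effectors 19 fell and 0 rose, with a median log2 fold change of -0.67 and 41 members below 0. Isg15 (ENSMUSG00000035692), a ubiquitin-like protein attached to other proteins, had 11.7, 8.77, 11.6 and 10.7 CPM in Mel321-31 replicates 1 to 4 and 20.2, 26.3, 15.3 and 28.3 CPM in MGO.53 replicates 1 to 4. Every Mel321-31 library lay below every MGO.53 library (-1.07 ± 0.16, adjusted p = 0.000778). Oas3, which makes the oligoadenylates that activate RNase L, had 2.58, 2.34, 3.47 and 2.49 CPM against 5.56, 7.65, 5.59 and 9.86 CPM (-1.39 ± 0.25, adjusted p = 0.00253), again with separate groups. Ifit1, which binds RNA that lacks the normal cap methylation, had 9.61, 6.92, 10.2 and 7.20 CPM against 12.5, 20.8, 12.4 and 17.3 CPM (-0.88 ± 0.17, adjusted p = 0.00434). Rsad2, which encodes viperin, had 21, 14.9, 20.6 and 21.9 CPM against 31.9, 38.8, 23.8 and 40.6 CPM (-0.78 ± 0.15, adjusted p = 0.00325). In each of these 4 genes Mel321-31 replicate 2 was the lowest library, and MGO.53 replicates 2 and 4 were the highest of their group. The family was not uniform: Ifit2 (0.01 ± 0.062) and Ifi27 (0.06 ± 0.075) were not called, and Bst2, the tether of budding virus, had 34.6 ± 3.66 CPM against 39.5 ± 3.85 CPM (-0.19 ± 0.086, adjusted p = 0.249). Of the 20 effectors whose batch 2 ratio was below 0.5, 15 fell, with a median of -0.94. Of 17 with a higher ratio 3 fell, with a median of -0.21. With the summed level of the 95 transcripts as a covariate 0 of the 44 were called and the median was -0.03, and 11 fell without Mel321-31 replicate 2 and 12 without MGO.53 replicate 2.

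Genes of 4 further interferon-induced families fell in part, several of them side by side on a chromosome. Of 16 interferon-induced GTPases, which attack the vacuoles of intracellular microbes, 8 fell (median -0.81). Gbp3 had 10.5, 7.53, 8.82 and 8.89 CPM in Mel321-31 replicates 1 to 4 and 14.1, 20.6, 11.7 and 16.5 CPM in MGO.53 replicates 1 to 4 (-0.81 ± 0.16, adjusted p = 0.00454), with no overlap. Gbp2 had 13.1, 11.5, 10.6 and 12.5 CPM against 16.8, 17.7, 14.7 and 19.2 CPM (-0.52 ± 0.092, adjusted p = 0.00214), also with no overlap. Of 9 genes of the Ifi200 family, which bind DNA in nucleus or cytosol, 6 fell (median -1.39), and 6 of the 9 were among the 95 transcripts. In that family Mndal had 2.99, 2.18, 2.73 and 2.6 CPM against 5.20, 7.96, 5.13 and 8.67 CPM (-1.35 ± 0.23, adjusted p = 0.00203). Of 4 Apol genes, Apol9a (-1.46) and Apol9b (-1.23) fell. Of 7 tested genes of the Schlafen family, Slfn4, Slfn8 and Slfn2 fell (-1.50, -1.49 and -1.17) and 3 were not called. In the same family Slfn3 rose from 12.2 ± 0.210 to 15.6 ± 1.29 CPM (0.35 ± 0.081, adjusted p = 0.0150). Slfn3 had a batch 2 level of 12.6 CPM, close to its batch 1 mean of 13.7 CPM. Near-identical copies are frequent in these families, and how their reads were divided is uncertain.

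Read along the chromosomes, 53 of the 311 lower genes stood in 23 runs of tested neighbours that were all called lower, against 12 of the 206 higher genes in 6 runs. Of all tested genes 2.13% were called lower and 1.41% higher. The larger set can form more runs by number alone, and the number of runs by chance was not computed. The longest run was Gbp5, Gbp7, Gbp3, Gbp2b and Gbp2 on chromosome 3, followed by Mndal, Ifi211, Ifi203 and Ifi202b on chromosome 1. Runs of 3 were Sp110, Sp140 and Sp100, which encode nuclear body proteins, on chromosome 1, and Tap1, Psmb8 and Tap2 on chromosome 17. Where the genes of a run belong to one family, as the Gbp genes do, they share ancestry and in part sequence and are not independent readings. Other runs, such as Arhgdia with Alyref, were not of this kind.

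Antigen presentation by MHC class I fell in 9 of 23 tested genes (median -0.55). H2-K1, a class I heavy chain, had 18.6, 13.4, 18.5 and 18.9 CPM in Mel321-31 replicates 1 to 4 and 29.1, 34.0, 21.4 and 37.3 CPM in MGO.53 replicates 1 to 4. The groups were separate, with Mel321-31 replicate 2 well below the other 3 (-0.81 ± 0.18, adjusted p = 0.00948). H2-D1, the other classical heavy chain of this haplotype, had 101, 89.5, 91.3 and 89.6 CPM against 119, 124, 110 and 133 CPM (-0.39 ± 0.079, adjusted p = 0.00585). B2m, the shared light chain, had 167, 145, 156 and 160 CPM against 167, 210, 171 and 192 CPM, where the closest libraries of the groups differed by less than 1 CPM (-0.23 ± 0.054, adjusted p = 0.0133). The peptide pumps Tap1 (-0.86) and Tap2 (-0.88), the immunoproteasome subunit Psmb8 (-1.40), the loading factor Tapbp (-0.32), and H2-T23 (-0.94) and H2-Q4 (-0.73) fell as well. The transactivator Nlrc5 (-0.93) did not pass. Calr and Pdia3, chaperones of class I loading that are not interferon-specific, had log2 fold changes of -0.05 and 0.04. Without Mel321-31 replicate 2, MGO.53 replicate 2 or MGO.53 replicate 4, 3 members were called.

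**Figure D3:**
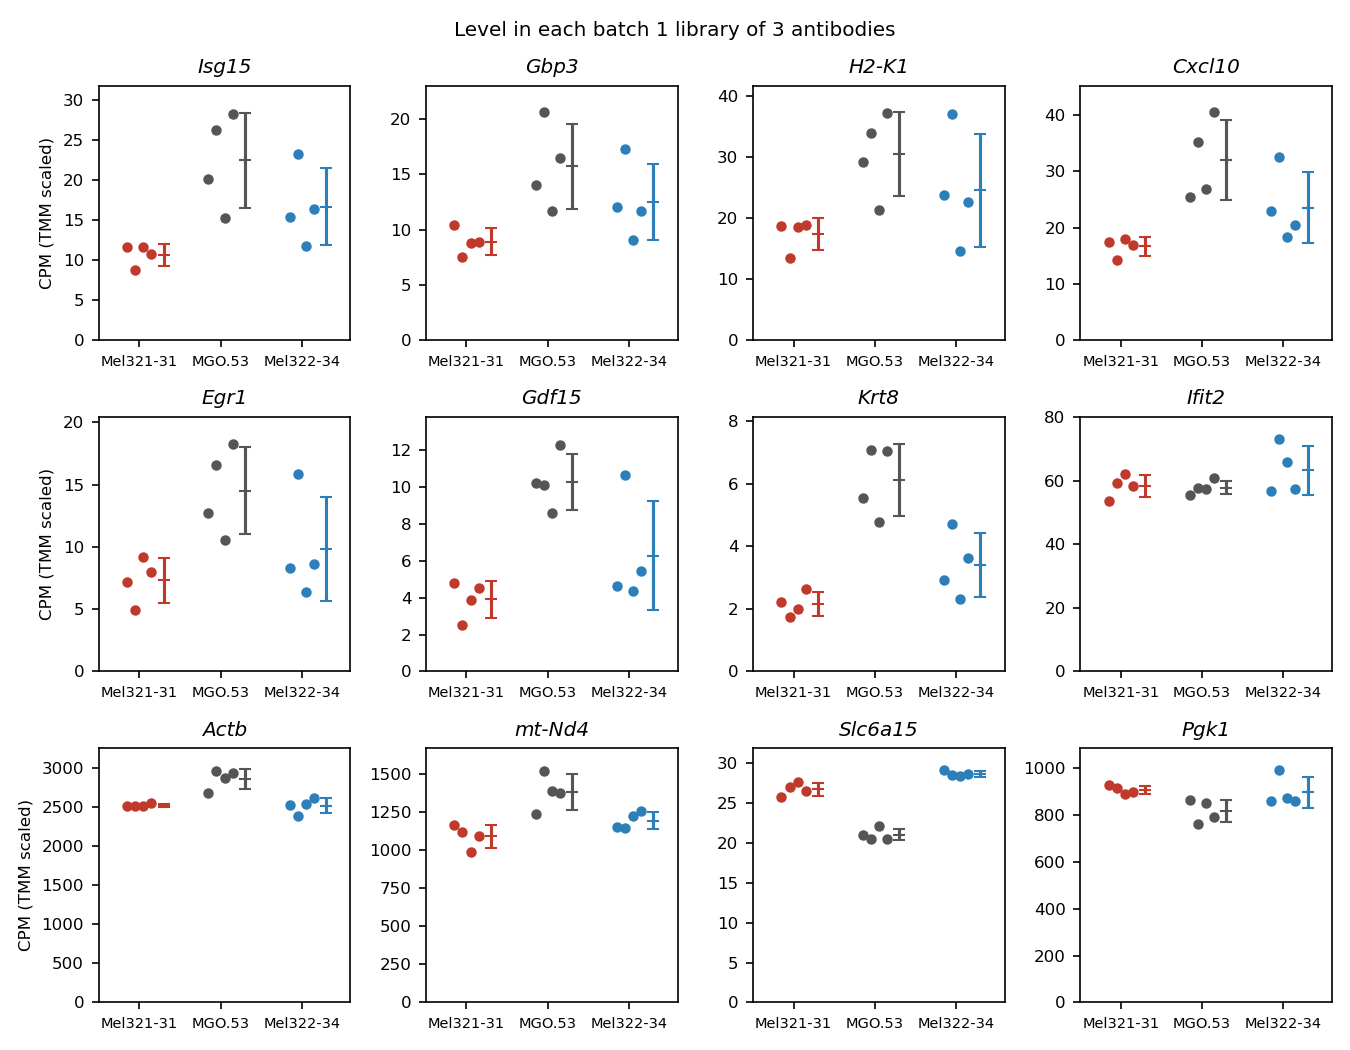
CPM in each batch 1 library (points), with the mean and SD beside them, for 12 genes under Mel321-31, MGO.53 and Mel322-34. Isg15, Gbp3, H2-K1, Cxcl10, Egr1, Gdf15 and Krt8 are lower in every Mel321-31 library than in any MGO.53 library, Slc6a15 is higher, and Ifit2 overlaps.

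A list of cytokines, chemokines and other inflammatory mediators fell in 7 of 21 tested members (median -0.90). Cxcl10, a chemokine for T and NK cells, had 17.6, 14.2, 18.1 and 16.9 CPM in Mel321-31 replicates 1 to 4 and 25.4, 35.2, 26.9 and 40.5 CPM in MGO.53 replicates 1 to 4 (-0.93 ± 0.18, adjusted p = 0.00432). Ptgs2, the inducible cyclooxygenase, had 2.58, 1.93, 2.15 and 2.49 CPM against 4.93, 7.34, 4.66 and 6.01 CPM (-1.31 ± 0.22, adjusted p = 0.00169). Both genes separated the groups. The chemokines Ccl2 (-1.2) and Ccl5 (-0.87), the cytokine Il6 (-1.28), the iron-binding Lcn2 (-1.30) and the acute phase gene Saa3 (-1.81) fell too. All 7 had a batch 2 ratio (the ratio defined above) below 0.5. Of the 31 listed mediators 10 were too low to be tested, among them Tnf, and Il1a and Il1b had no read in the 8 libraries. The NF-kB pathway itself was mostly uncalled: of 23 members the inhibitor Tnfaip3 (-1.11) and Tnfaip2 (-0.32) fell, and Nfkb1 (-0.05), Rela (-0.16) and Nfkbia (-0.27) did not pass. Among 7 tested receptors reported to bind extracellular HSP70, none passed (3 had an unadjusted p under 0.05 by edgeR, DESeq2 called 0). Of these, Tlr4 had 45.3 ± 4.48 CPM against 40.2 ± 1.73 CPM (0.17 ± 0.060, adjusted p = 0.106) and Tlr2 had 1.36 ± 0.451 CPM against 2.11 ± 0.523 CPM (-0.64 ± 0.29, adjusted p = 0.246).

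Early response and growth factor genes fell in part. Among 20 immediate early genes 7 fell and 0 rose (median -0.09). Egr1, a zinc finger factor induced by ERK signalling, had 7.19, 4.94, 9.22 and 8.01 CPM in Mel321-31 replicates 1 to 4 and 12.7, 16.5, 10.6 and 18.3 CPM in MGO.53 replicates 1 to 4 (-0.98 ± 0.20, adjusted p = 0.00684), with no overlap. Myc, the growth-promoting transcription factor, had 91.8, 88.6, 89.8 and 90.5 CPM against 100.2, 116, 103 and 109 CPM (-0.24 ± 0.043, adjusted p = 0.00214). The Mel321-31 libraries lay close together, below all MGO.53 libraries. Klf4 (-0.44), Zfp36 (-0.38), which hastens decay of cytokine messages, Btg1 (-0.43), Maff (-0.33) and Ier5l (-0.50) also fell, and these 6 other than Egr1 had a batch 2 ratio of at least 0.5. Of 11 AP-1 subunits Fosl1 (-1.44) fell, while Jun (-0.09), Fos (-0.04) and Junb (-0.17) did not pass. Of 21 genes of ERK feedback Dusp5 (-1.61) fell, and the ERK targets Dusp6 (-0.05), Spry2 (0.01) and Spry4 (-0.15) did not. Among 9 ErbB ligands and receptors the receptor Erbb3 (0.18) rose. The ligands Areg (-1.24) and Ereg (-1.06) did not pass.

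The integrated stress response was lower in 6 of 25 members (median -0.10), and 6 or 7 members were called whichever of the 8 libraries was left out. Gdf15, a stress-induced cytokine, had 4.77, 2.51, 3.86 and 4.50 CPM in Mel321-31 replicates 1 to 4 and 10.2, 10.1, 8.58 and 12.3 CPM in MGO.53 replicates 1 to 4 (-1.40 ± 0.22, adjusted p = 0.000778). Ppp1r15a, which encodes GADD34, the subunit that reverses eIF2alpha phosphorylation, had 51.5, 40.9, 47.1 and 47.4 CPM against 64.9, 80.3, 58.6 and 79.8 CPM (-0.60 ± 0.12, adjusted p = 0.00432). Both separated the groups. Cebpb had 11.4, 9.90, 12.2 and 13.3 CPM against 18.4, 21.1, 15.1 and 19.7 CPM (-0.66 ± 0.11, adjusted p = 0.00118), and its batch 2 level of 14.7 CPM lay near its batch 1 mean of 15.5 CPM. Trib3 (-0.58), Nupr1 (-0.98) and Atf5 (-0.24) fell as well. Atf4 itself (-0.07 ± 0.039), Ddit3 (-0.10) and the amino acid genes Asns (-0.06) and Psat1 (0.03) were not called. With the summed level of the 95 transcripts as a covariate 0 of the 25 were called. The unfolded protein response had none of 20 members past the threshold (4 had an unadjusted p under 0.05 by edgeR, DESeq2 called 1), with Hspa5 at 0.04.

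The HSP70 genes and their partners changed little, and most lay slightly above their control level. Of these Hspa8, the constitutive cytosolic HSP70, had 2074, 2057, 1968 and 2029 CPM in Mel321-31 replicates 1 to 4 and 2060, 2069, 1960 and 1988 CPM in MGO.53 replicates 1 to 4, with full overlap. The inducible Hspa1b had 3.79, 3.12, 2.42 and 2.28 CPM against 2.51, 3.46, 3.18 and 2.77 CPM, also overlapping, and its near-identical copy Hspa1a was too low to be tested. Of 21 heat shock genes 1 was called, Hspa13, a microsomal relative of HSP70, which had 79.7, 73.5, 71.0 and 74.8 CPM against 68.5, 66.1, 66.3 and 63.0 CPM (0.18 ± 0.048, adjusted p = 0.0329). Of the 21, 16 lay above 0 and 5 below (median 0.045), and 5 had an unadjusted p under 0.05 (edgeR). Every Mel321-31 library was above every MGO.53 library for 6 of the 21, against 4.61% of all tested genes. Hspe1, Hspd1 and Hspa4, not called, were among these 6. For Hspe1 the levels were 224, 207, 208 and 196 CPM against 188, 188, 190 and 186 CPM.

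Transcripts of epithelial kind were among the decreases, although B16-F10 is labelled a melanoma. Of 20 keratin and epithelial genes listed 9 were tested and 3 fell: Krt8, Krt18 and Msln. Krt8, a keratin of simple epithelia, had 2.23, 1.74, 2.00 and 2.65 CPM in Mel321-31 replicates 1 to 4, 5.56, 7.08, 4.78 and 7.05 CPM in MGO.53 replicates 1 to 4 and no read in the batch 2 library (-1.50 ± 0.23, adjusted p = 0.000778). Msln, which encodes mesothelin, had 3.15, 1.19, 2.13 and 2.84 CPM against 4.28, 8.22, 2.87 and 8.13 CPM, with overlapping groups (-1.32 ± 0.33, adjusted p = 0.0220). The list summed to 31.9 to 40.3 CPM with Mel321-31 and 44.4 to 55.9 CPM with MGO.53, and Epcam and Cldn7 had no read in the 8 libraries. Chosen after their values were seen, Pax2, a transcription factor of kidney and genital tract development, had 0.541, 0.110, 0.131 and 0.107 CPM against 0.897, 0.983, 0.893 and 1.27 CPM (-2.21 ± 0.51, adjusted p = 0.0133). Likewise Wfdc2, a secreted protease inhibitor of epithelia, had 0.859, 0.855, 0.499 and 0.750 CPM against 2.54, 2.02, 1.32 and 2.81 CPM (-1.56 ± 0.36, adjusted p = 0.0130). In both the groups were separate, and neither gene had a read in the batch 2 library. The part of such transcripts in the decreases of the interferon and inflammatory genes was not tested.

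Lineage genes were mostly uncalled. Of 19 melanocyte lineage genes 1 fell, the neural crest factor Sox10, with 562, 564, 579 and 564 CPM against 627, 631, 606 and 599 CPM (-0.12 ± 0.031, adjusted p = 0.0297), with separate groups. Its partner Mitf had 687 ± 31.0 CPM against 655 ± 15.3 CPM (0.07 ± 0.035, adjusted p = 0.289), and the pigment enzyme Tyr had a log2 fold change of 0.04.

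**Figure D4:**
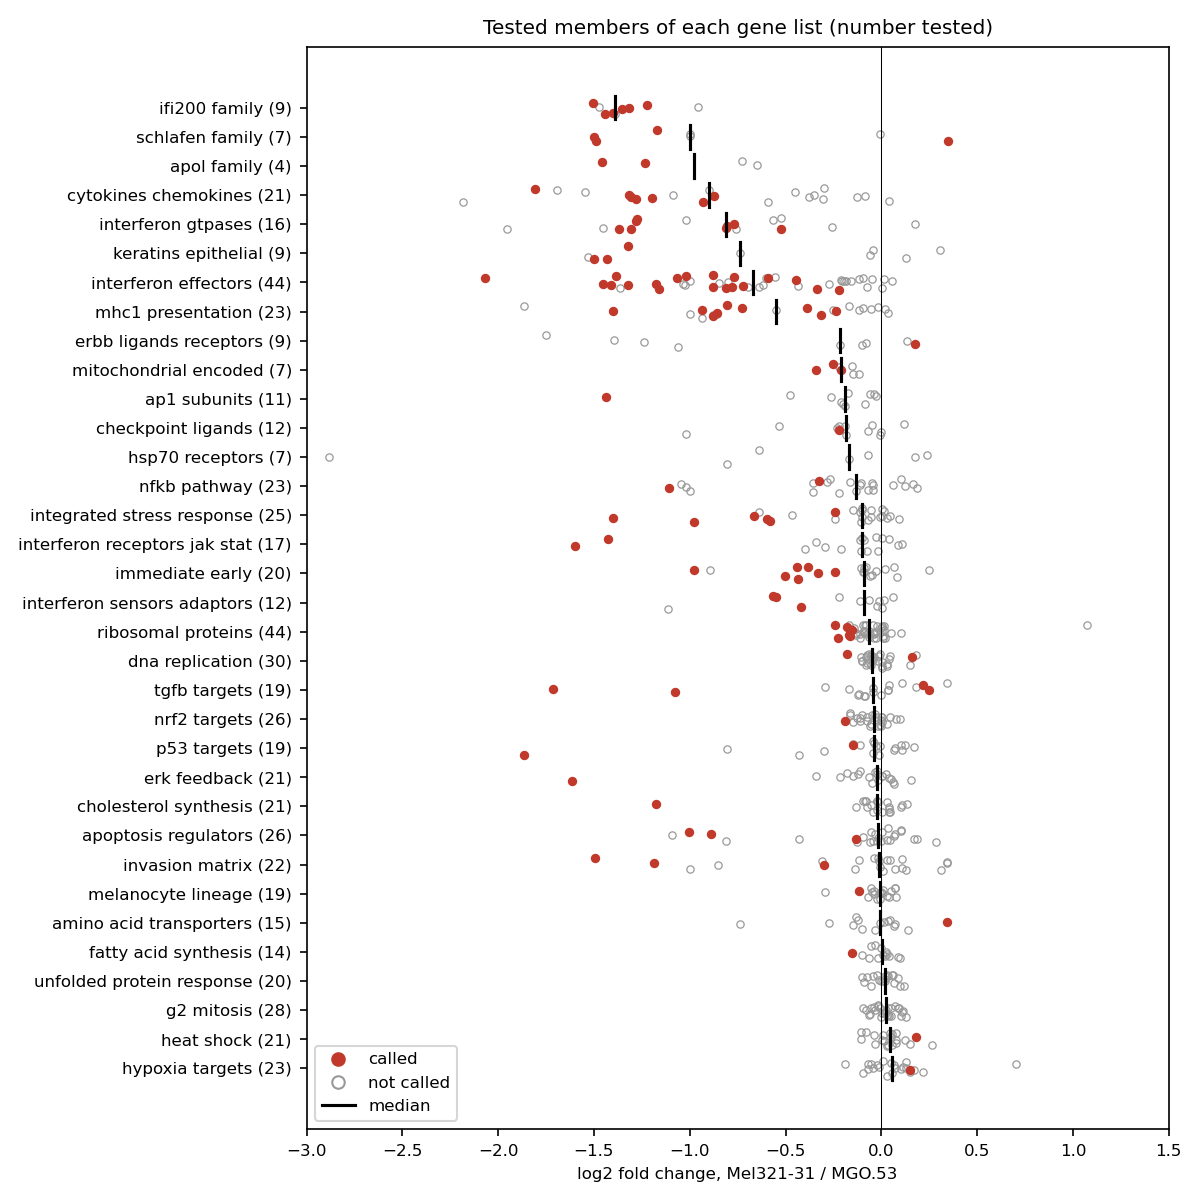
Log2 fold change of Mel321-31 over MGO.53 (x axis) for each tested member of the gene lists (rows, ordered by their medians, drawn as black bars), with called members filled. The Ifi200 family has the lowest median, -1.39, and the lists of cell cycle, heat shock and lineage genes centre near 0.

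Genes of cell death and invasion showed few calls. Of 19 p53 genes, Trp53 itself fell from 164 ± 4.14 to 148 ± 3.09 CPM (SD, n = 4 each, -0.15 ± 0.039, adjusted p = 0.0313), and the death receptor Fas fell (-1.86 ± 0.53, adjusted p = 0.0443) at levels of at most 1.16 CPM. The p53 targets Cdkn1a (-0.04), Mdm2 (0.07) and Bax (0.10) did not pass. Of 26 apoptosis and pyroptosis regulators the inflammatory caspase Casp4 (-1.0), the pore former Gsdmd (-0.89) and the mitochondrial effector Bak1 (-0.13) fell. Of 12 checkpoint and immune ligand genes Lgals9 (-0.22) fell, and Cd274, which encodes PD-L1, had 6.75 ± 0.611 CPM against 7.86 ± 0.294 CPM (-0.22 ± 0.12, adjusted p = 0.361). Of 22 invasion and matrix genes Spp1 (-1.19), which encodes osteopontin, Plaur (-0.30) and Mmp13 (-1.50) fell. Among 19 genes of TGF-beta signalling Inhba (-1.71) and Ltbp1 (-1.08) fell while Skil (0.25), a SMAD repressor, and Scube3 (0.22) rose.

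Housekeeping groups changed little. None of 28 genes of G2 and mitosis passed (8 had an unadjusted p under 0.05 by edgeR, DESeq2 called 0), with Mki67 at 0.13. Of 30 replication genes the licensing factor Cdt1 fell (-0.18) and the polymerase Pola1 rose (0.16). Of 26 NRF2 targets Gstm1 fell (-0.19), of 23 hypoxia genes the glycolytic Pgk1 rose (0.15), of 15 amino acid transporters Slc6a15 rose (0.35), and of 14 fatty acid genes Elovl1 fell (-0.15).

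A minority of ribosomal protein genes and some mitochondrially encoded genes fell by small amounts. Of 44 ribosomal protein genes 7 fell, with a median of -0.07 that was 0.0851 in Mel321-31 replicate 1 and -0.13 to -0.11 in its other 3 libraries, relative to the MGO.53 mean. Without that replicate 23 fell, and 3 fell without any 1 of the other Mel321-31 libraries, MGO.53 replicate 2 or MGO.53 replicate 4. Of 7 tested mitochondrially encoded genes mt-Nd4, mt-Nd2 and mt-Cytb fell, and mt-Nd4 had 1161, 1115, 988 and 1093 CPM against 1233, 1518, 1387 and 1374 CPM (-0.34 ± 0.050, adjusted p = 0.000778). The mitochondrial share of the counts, given above, was also lower with Mel321-31, and its part was not tested. Actb, which encodes beta-actin and often serves as a reference gene, had 2510, 2511, 2508 and 2543 CPM against 2678, 2955, 2860 and 2926 CPM (-0.18 ± 0.030, adjusted p = 0.00153). Its Mel321-31 libraries lay close together and below all MGO.53 libraries. Tmsb10 (-0.27) and S100a6 (-0.66), chosen after their values were seen, encode an actin-binding peptide and a calcium-binding protein, and fell too. The median longest transcript was 2312 nt for the lower genes, 6119 nt for the higher genes and 3105 nt for genes not called. After the relation to transcript length had been taken out of every library, 300 genes were called lower and 137 higher. Of these 437 genes, 354 were among the 517 called without that step.

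**Figure D5:**
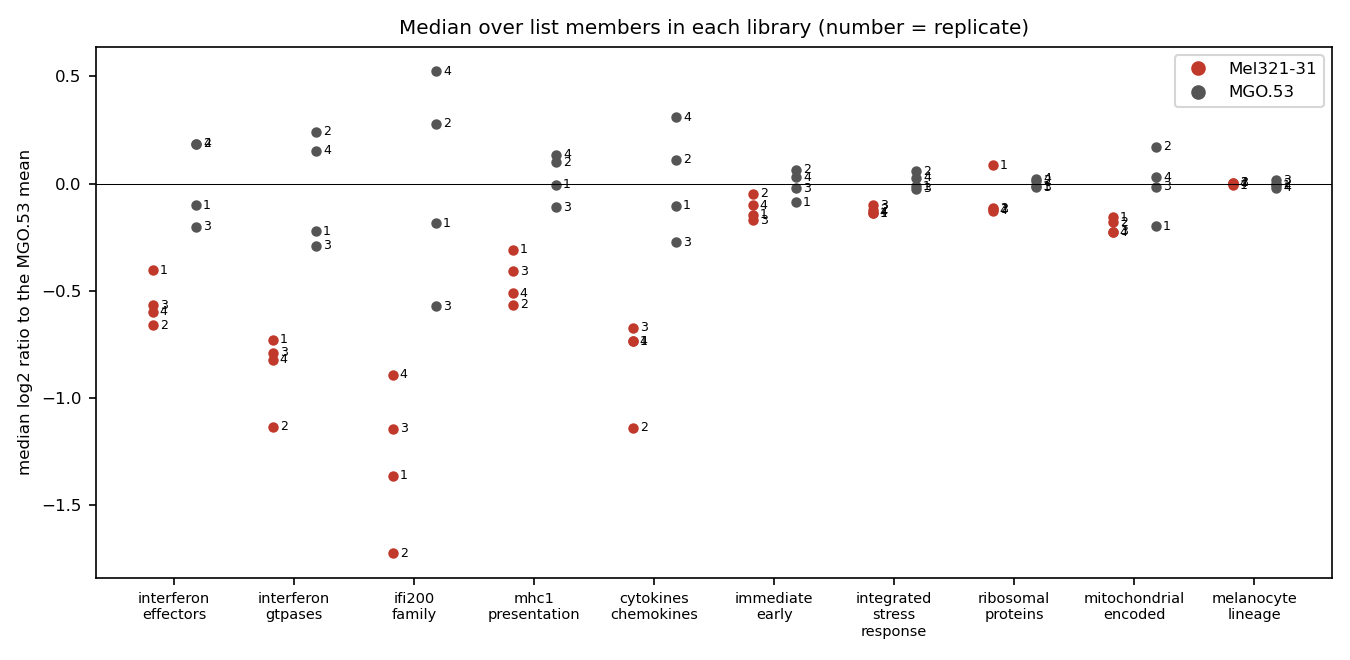
Median log2 ratio to the MGO.53 mean (y axis) over the tested members of 10 lists (x axis) in each Mel321-31 and MGO.53 library, numbered by replicate. For interferon effectors, interferon GTPases, the Ifi200 family and MHC class I presentation all Mel321-31 libraries lie below all MGO.53 libraries, with Mel321-31 replicate 2 lowest, whereas ribosomal protein genes are at 0.0851 in Mel321-31 replicate 1 and at -0.13 to -0.11 in the other 3.

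Of the 206 higher genes 8 belonged to any of the lists, and of the 311 lower genes 104. The lists were chosen with earlier results of these data known. The share of all tested genes that they hold was not counted, so these counts are no result about the increases. Among genes with separate groups and an average log2 CPM of at least 1, the largest increase with an established symbol was that of Myef2l, which had 5.95, 6.31, 5.31 and 6.08 CPM against 4.25, 4.24, 3.57 and 3.47 CPM (0.61 ± 0.13, adjusted p = 0.00711). Slc6a15, a transporter of neutral amino acids, had 25.8, 27.0, 27.7 and 26.4 CPM against 21, 20.5, 22.1 and 20.5 CPM (0.35 ± 0.059, adjusted p = 0.00203). The groups were separate in both. Btbd8 (0.39), Klhl11 (0.38), Rpgrip1l (0.37), Dixdc1 (0.34), Spsb1 (0.33), Lcor (0.32) and the ephrin receptor Epha7 (0.30) followed. At high CPM, the receptor kinase Met had 1348, 1481, 1433 and 1511 CPM against 1352, 1290, 1344 and 1300 CPM, where Mel321-31 replicate 1 overlapped with MGO.53 (0.13 ± 0.036, adjusted p = 0.0467), and Pgk1 had 908 ± 16.3 CPM against 818 ± 47.7 CPM. The batch 2 library held less than 0.5 of the batch 1 mean for 0 of the genes called higher and for 153 of the genes called lower. Unlike the batch 2 ratio used above, that mean includes the libraries compared and had no CPM floor, which favours low values for lower genes. The share over all tested genes was not counted, so these counts are no result about the called genes.

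Set directly against Mel322-34, 3 of 14633 genes differed with Mel321-31, or 0.0205% (edgeR). An unadjusted p under 0.05 was reached by 1019, and DESeq2 called 10. All 3 were lower with Mel321-31. Scube3, a secreted glycoprotein, had 27.9, 28.0, 26.9 and 27.4 CPM with Mel321-31 and 36.1, 34.0, 32.8 and 34.9 CPM with Mel322-34 (-0.32 ± 0.055, adjusted p = 0.0168). Erbb3, a receptor for neuregulin, had 65.1, 72.7, 67.8 and 70.9 CPM against 81.9, 81.5, 82.0 and 83.4 CPM (-0.25 ± 0.044, adjusted p = 0.0229). Pmepa1, an inhibitor of TGF-beta signalling, had 42.6 ± 1.13 CPM against 52.0 ± 2.66 CPM (-0.29 ± 0.048, adjusted p = 0.0168). The libraries of the 2 antibodies did not overlap in any of the 3. In MGO.53 Scube3 and Erbb3 had 23.7 ± 1.07 and 61.1 ± 3.13 CPM, below both antibodies. The count was 0 without Mel321-31 replicate 2, 3 or 4 or Mel322-34 replicate 1 or 4, and 2 without any 1 of the other 3 libraries. Of the 311 genes lower than MGO.53, 0 were called against Mel322-34, 151 had an unadjusted p under 0.05, and the median log2 fold change between the antibodies was -0.34. The 206 higher genes had a median of -0.0049 in that comparison, 17 of them had an unadjusted p under 0.05, and 2, Scube3 and Erbb3, were called. Both sets were chosen by values of the same Mel321-31 libraries, so these medians and counts rest in part on that choice.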

How the data were processed

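Poly(A) RNA of B16-F10 cells was sequenced with strand-specific libraries. The submitters' processing notes name DESeq2 (no version), HTSeq 2.01 and STAR 2.7.10a. Genome build and annotation were not given in the sources used here. The authors deposited raw counts per gene for 55414 identifiers, 6250 of them with no value, and a normalised signal, which was the count over a library's size factor and was not tested here. The strand setting of the counting is unknown, which leaves the level of a gene with an antisense partner uncertain.

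The test was that of edgeR 4.0.16 (R 4.3.3) on the deposited counts: TMM scaling, the default expression filter, 1 quasi-likelihood fit over 14 batch 1 libraries in 4 groups, and Benjamini-Hochberg adjustment over 14633 genes. Replicates varied by 5.46% (biological coefficient of variation), with 10 residual degrees of freedom. The code was tested on simulated data. CPM of single genes in batch 1 libraries are TMM-scaled counts per 1000000. Summed CPM of the 95 transcripts used the library total alone, and exact permutation tests compared single values per library. Transcript lengths and gene order came from GENCODE M21, matched by identifier for 14612 tested genes. RefSeq promoters were matched by symbol for 10494 tested genes.

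Members and lists (40 gene lists) were chosen with earlier results of these data known, and lists are described by counts and medians, without a test of the list. Named were the 15 largest increases and 15 largest decreases among called genes that had separate groups, an established symbol and a mean log2 CPM not below 1, the 6 called genes of highest CPM in each direction, from each list every called member and the 4 of smallest p, other list members with their values, and Hspa8 and Hspa1b. Not all are named. Alternatives were DESeq2 1.42.0, limma-voom (limma 3.58.1), other scalings, filters and thresholds, the 2 groups alone, a batch term, the replicate block, each library left out, and 3 fits on the 95 transcripts and on transcript length. Same-numbered libraries did not deviate together, so the numbers were not taken to pair the samples.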

Additional observations from a re-analysis of the deposited data

Results flagged for a closer look

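A single library stood far from the other 3 of its group in 25 of 304 pairs of a named gene and a group, by Dixon's ratio of its gap to the group's range, and chance marks about 1 in 20 groups. Mel321-31 replicate 1 accounted for 12 of the 25. Its level was the highest of its group for Calr (1348 CPM), Ddit3 (34.6 CPM), H2-D1 (101 CPM), Nupr1 (4.74 CPM) and Pax2 (0.541 CPM). It was the lowest for Cdkn1a (413 CPM), Mdm2 (159.8 CPM), Mitf (641 CPM), Nfkb1 (71.4 CPM), Skil (76.5 CPM), Slfn3 (13.6 CPM) and Tlr4 (38.6 CPM).

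Mel321-31 replicate 2 stood apart with Adarb2 (0.551 CPM), Asns (104 CPM), H2-K1 (13.4 CPM) and Krt18 (1.05 CPM). Replicate 3 of that group stood apart with Sox10 (579 CPM) and Tnfaip3 (3.83 CPM), and replicate 4 with Actb (2543 CPM) and Atf4 (216 CPM). Among MGO.53 libraries, replicate 2 stood apart with Zfp36 (12.7 CPM), replicate 3 with Adarb2 (1.98 CPM) and Spsb1 (17.8 CPM), and replicate 4 with Calr (1366 CPM) and Cgas (9.94 CPM).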

How the results depend on the processing

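The 517 genes called against MGO.53 (206 higher, 311 lower) came to 459 to 642 under the other scalings, filters on low counts, limma-voom, the 2 groups alone, a batch term and the replicate block. DESeq2 called 754 (358 higher), an adjusted p under 0.01 left 148 (43 higher, 105 lower), and a test against a 1.2-fold change left 66, all lower, with 0 higher (edgeR, 505 at an unadjusted p under 0.05 in either direction). Upper quartile scaling gave 144 higher and 337 lower, and removing the length trend gave 137 higher and 300 lower. Leaving out 1 library gave 136 to 1238 genes, 36 to 665 higher and 100 to 573 lower, and the cause was not tested. Without the 95 transcripts, 401 genes were called.

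With the summed level of those transcripts as a covariate, 5 genes were called, 4 higher and 1 lower. Signs then turned for Apol9a (0.0075), Casp4 (0.13), Ccl2 (0.16), Ccl5 (0.0043), Egr1 (0.16), Fosl1 (0.33), Gbp2b (0.25), Gbp3 (0.011), Gbp5 (0.19), H2-D1 (0.020), H2-K1 (0.24), H2-Q4 (0.23), Inhba (0.022), Klf4 (0.049), Ly6e (0.033), Met (-0.000155), Msln (0.55), Ppp1r15a (0.066), Ptms (0.34), Rsad2 (0.032), Slfn2 (0.24), Sp140 (0.22), Tap1 (0.024), Tap2 (0.19) and Tnfaip2 (0.025). The sum separates the groups, so this fit rests on the relation to the sum within groups. How well it tells the antibody from the sum was not tested. The estimates themselves moved, as these signs show, and 1204 genes had an unadjusted p under 0.05, against 2600 without the covariate (edgeR). No sign of a called gene turned under the other settings for the 152 tested genes named.

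Against Mel322-34, the 3 genes, all lower, became 5 with a total of at least 10 counts, 10 by DESeq2, 6 with the replicate block, 0 at an adjusted p under 0.01 and 0 against a 1.2-fold change (edgeR, 1019 and 246 at an unadjusted p under 0.05), and 0 to 2 with 1 library left out. The replicate numbers share no more than a number: deviations of same-numbered libraries correlated at -0.03 to 0.04, and the replicate block gave 636 calls in place of 517. Leaving out 1 library gave an exact permutation p of 0.0286 to 0.0857 for total counts, 0.0286 to 0.171 for the mitochondrial share and 0.0286 to 0.0571 for the summed 95 transcripts. Depth limits the lower genes most, since 97 of the 311 had under 5 CPM with MGO.53.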

Other observations

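Some large decreases belonged to none of the gene lists. Grem1, a secreted antagonist of bone morphogenetic proteins, had 3.02, 2.07, 3.20 and 3.43 CPM in Mel321-31 replicates 1 to 4 and 6.46, 8.22, 7.03 and 7.78 CPM in MGO.53 replicates 1 to 4 (log2 fold change -1.32 ± 0.23, SE, adjusted p = 0.00221, edgeR). The groups were separate, and the batch 2 library held 0.230 CPM. Avil, which encodes the actin-binding protein advillin, had 3.53, 1.32, 2.10 and 3.37 CPM against 5.11, 8.12, 4.86 and 8.67 CPM (-1.37 ± 0.26, adjusted p = 0.00432), with 0.268 CPM in the batch 2 library. The phosphatase gene Ppef1 had 1.65, 0.993, 1.31 and 1.69 CPM against 3.08, 4.50, 3.81 and 6.51 CPM (-1.66 ± 0.25, adjusted p = 0.000778) and no read in the batch 2 library.

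Ly6e, an interferon-induced surface protein chosen after its values were seen, had 16.1, 10.7, 15.7 and 17.1 CPM against 29.4, 39.9, 24.5 and 44.6 CPM (-1.21 ± 0.21, adjusted p = 0.00203), and its level in the batch 2 library was 0.0383 CPM against 20.2, 42.1, 14.5 and 22.8 CPM in the 4 Mel322-34 libraries. The 4 Mel322-34 libraries thus spanned the gap between Mel321-31 and MGO.53 for this gene.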
